A study of Mus musculus with 9 samples.

Results

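The 51 genes described here were selected by 1 rule from a table of 55359 mouse genes. Over the 3 libraries of uninduced preadipocytes, a member had at most 6 ribosome footprints in all. Its mean over the 3 libraries of day 4 or of day 8 was at least 1.5 CPM (the footprint count divided by the total of its library, times 1000000). Genes with a day 8 mean of at least 4 times the day 4 mean, genes with a day 4 mean of at least 3 times the day 8 mean, and Gys2 were left out. The levels of all 3 days thus chose the members, and those levels and the contrasts between days are given here as a description. Where a fit across all genes called members between days, the count stands beside the share of all tested genes, and nothing is read from it. What the rule did not use was the spread between libraries of 1 day, the promoter sequences, the class and neighbours of the genes, and the levels of related genes.

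The cells were adipocyte precursors from mouse inguinal white adipose tissue, a fat depot under the skin, in culture. There were 3 libraries of cells that were not induced (day 0), 3 of cells differentiated for 4 days and 3 of cells differentiated for 8 days. Induction medium held dexamethasone, 3-isobutyl-1-methylxanthine, indomethacin, insulin, triiodothyronine and rosiglitazone, and after 2 days the first 3 of these were withdrawn. Day 0 cells had none of the 6 agents, so days in culture and the agents cannot be told apart. The labels do not say whether replicates came from separate animals or cultures, so any spread or p-value measures only the spread between these libraries, which may be technical. The labels give no strain, sex or age.

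Ribosome profiling counts the short mRNA fragments that ribosomes shield from RNase, so that a count reflects both the amount of an mRNA and the ribosomes on it. When a preadipocyte becomes a fat cell, the nuclear receptor PPARγ, which pairs with a retinoid X receptor, and the C/EBP factors switch on genes of lipid storage. Beige fat cells also gain mitochondria and the uncoupling protein UCP1, which lets them make heat. Dexamethasone acts on the glucocorticoid receptor, 3-isobutyl-1-methylxanthine raises cyclic AMP, and rosiglitazone is a ligand of PPARγ.

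Libraries held 30823028 to 38994892 counts. The limit of 6 counts over the day 0 libraries equals 0.0614 CPM. At or under it were 38806 genes, of which 0.258% later had a mean of at least 1.5 CPM, 100 genes in all. Besides the 51 members these were 27 genes far higher at day 8, 21 genes far higher at day 4, and Gys2. The reverse was rarer: 6 genes with at least 1.5 CPM at day 0 had at most 6 counts over the day 8 libraries, and 4 had at most 6 counts over the day 4 libraries. Summed over 7 fat cell markers (Adipoq, Plin1, Fabp4, Cidec, Pparg, Cebpa, Lep), levels were 246 to 323 CPM at day 0, 30900 to 45908 CPM at day 4 and 49523 to 52990 CPM at day 8. Most of this was Fabp4, with means of 31995 CPM at day 4 and 44607 CPM at day 8. The means of Plin1 and Pparg were also higher at day 8 than at day 4, and those of Adipoq, Cidec and Cebpa were lower. Lep averaged at most 0.143 CPM on any day. Summed over 7 precursor markers, levels were 2540 to 2579, 752 to 1742 and 540 to 739 CPM at days 0, 4 and 8. That sum was made up mostly of Pdgfrb and Pdgfra. Of these 7, edgeR called 3 higher and 2 lower at day 4, and 0 higher and 3 lower at day 8. Among pairs of replicates, those with day 4 replicate 2 differed most, with a chi-square per gene of 228 and 256, against 23.8 for the other day 4 pair. The pairs with day 8 replicate 3 had 73.7 and 78.8, against 16.8 for the other day 8 pair. These 2 libraries stand apart, and results that rest on them are also given without them.

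Promoter sequences were available for 35 of the 51 members, as windows of 250 bases before and 50 bases after a transcription start (RefSeq, GRCm38.p6, an earlier build than the GRCm39 of the counts). A set of 4 windows is printed because it holds letters of a binding motif of nuclear receptors, and 2 because they are rich in CpG and hold none of the motifs searched. Each is written 5′ to 3′ on the strand of its gene. Capitals mark motif letters, on either strand. In Lctl, Ucp3 and Rxrg they mark the nuclear receptor half-site AGGTCA. In Lctl and Slc13a4 they mark 2 half-sites repeated with 1 base between them, searched as AGGNCANAGGNCA, here on the opposite strand. In Rxrg they also mark the C/EBP core TTGCNNAA.
Lctl (chr9:64116897-64117196, + strand): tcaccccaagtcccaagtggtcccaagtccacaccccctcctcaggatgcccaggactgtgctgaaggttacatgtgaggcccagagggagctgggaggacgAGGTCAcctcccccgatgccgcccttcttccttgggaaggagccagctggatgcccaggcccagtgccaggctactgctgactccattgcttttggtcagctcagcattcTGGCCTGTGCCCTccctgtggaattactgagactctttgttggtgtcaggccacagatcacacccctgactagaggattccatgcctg
Slc13a4 (chr6:35308077-35308376, − strand): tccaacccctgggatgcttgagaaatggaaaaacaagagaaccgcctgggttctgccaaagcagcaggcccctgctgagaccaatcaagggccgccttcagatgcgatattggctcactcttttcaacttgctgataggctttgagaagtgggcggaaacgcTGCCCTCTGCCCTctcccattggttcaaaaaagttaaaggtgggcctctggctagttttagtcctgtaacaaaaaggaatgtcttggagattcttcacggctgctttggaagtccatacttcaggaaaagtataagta
Ucp3 (chr7:100472741-100473040, + strand): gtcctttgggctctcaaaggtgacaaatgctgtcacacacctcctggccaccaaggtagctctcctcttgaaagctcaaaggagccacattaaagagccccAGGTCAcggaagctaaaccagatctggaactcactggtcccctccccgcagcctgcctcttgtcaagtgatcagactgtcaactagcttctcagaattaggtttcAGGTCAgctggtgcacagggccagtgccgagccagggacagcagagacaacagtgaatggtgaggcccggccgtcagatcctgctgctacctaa
Rxrg, the second of 2 windows (chr1:167618015-167618314, + strand): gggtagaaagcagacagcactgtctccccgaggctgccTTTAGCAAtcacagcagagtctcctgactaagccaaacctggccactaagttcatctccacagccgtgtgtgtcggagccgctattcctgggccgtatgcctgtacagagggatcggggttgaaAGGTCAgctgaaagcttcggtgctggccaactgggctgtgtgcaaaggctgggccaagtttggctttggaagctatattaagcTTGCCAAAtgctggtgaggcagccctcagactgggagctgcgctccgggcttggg
Itpka (chr2:119742087-119742386, + strand): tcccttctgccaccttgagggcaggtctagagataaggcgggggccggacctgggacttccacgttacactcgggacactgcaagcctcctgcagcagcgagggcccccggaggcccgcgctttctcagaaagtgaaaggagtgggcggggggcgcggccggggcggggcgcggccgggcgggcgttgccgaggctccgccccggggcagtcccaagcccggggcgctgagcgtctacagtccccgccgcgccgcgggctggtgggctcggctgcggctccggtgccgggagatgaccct
Trim67 (chr8:124792769-124793068, + strand): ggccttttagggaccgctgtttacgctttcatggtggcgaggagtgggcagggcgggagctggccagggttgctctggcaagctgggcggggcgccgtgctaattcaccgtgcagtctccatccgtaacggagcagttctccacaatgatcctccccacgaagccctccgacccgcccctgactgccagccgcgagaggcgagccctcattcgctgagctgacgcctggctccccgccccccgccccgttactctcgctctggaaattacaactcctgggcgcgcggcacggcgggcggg
In the Ucp3 window the half-sites began 149 and 44 bases before the start. In the Lctl window AGGTCA began 148 bases and the repeat 38 bases before the start, and in the Slc13a4 window the repeat began 88 bases before it. The observed over expected CpG frequency was 0.115 in the Lctl window, 0.222 in Ucp3, 0.338 in Slc13a4 and 0.373 in this Rxrg window, against 0.818 in Itpka and 0.833 in Trim67. A match is a description of letters and not a bound site.

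Over the 35 members with a sequence, 25 (71.4%, 95% Wilson interval 54.9 to 83.7%) had a low CpG promoter, with an observed over expected frequency under 0.6 on the mean of a gene's windows. The share was 57.5% of the 21011 genes in the table that have a window, 25.5% of the 8978 with at least 1.5 CPM at day 0, and 87.9% of the 9424 that were silent at day 0 and stayed under 1.5 CPM. Members thus lay between the genes that never came on and those in use before induction. AGGTCA was in a window of 12 members (34.3%), against 17.2% of all genes, 14.2% of genes in use at day 0 and 20.2% of genes that stayed silent. The 12 were Rxrg, Gm10851, Ctcflos, Slc6a13, Apoc4, Fsd2, Ucp3, Lctl, Dpf3, Itih4, 2010003K11Rik and Cited1. Fsd2, like Ucp3, held 2 copies. Members had 1.26 windows per gene and all genes 1.22, so the number of letters searched was close. The repeat AGGNCANAGGNCA was in 2 members, Lctl and Slc13a4 (5.71%), and in 0.424% of all genes. Among the remaining motifs the TATA box TATAAA was in 17.1% of members and 14.8% of all genes, and TTGCNNAA in 20.0% and 11.9%. The cyclic AMP response half-site with 2 more bases, TGACGT, was in 5.71% and 9.19%, and the glucocorticoid receptor half-site AGAACA in 14.3% and 19.8%. The silent genes left out for their ratio had other shares. Of the 15 with a sequence that were far higher at day 8, 86.7% had low CpG, 13.3% held AGGTCA and 26.7% TTGCNNAA, and of the 15 far higher at day 4 these were 73.3%, 26.7% and 33.3%. With 35 members, 1 gene is 2.86 percentage points, and no test was run on these shares. All 6 motifs were searched on both strands, and AGGTCA can lie within the repeat.

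**Figure D1:**
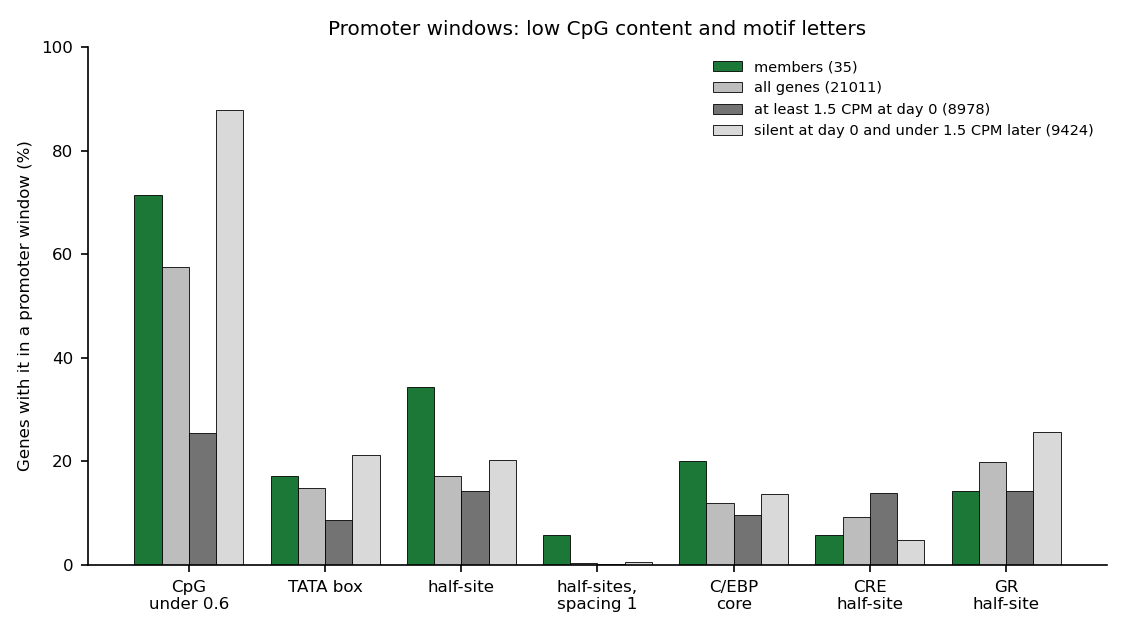
Share of genes (%, vertical axis) with a low CpG promoter (mean observed over expected CpG under 0.6) or with each motif in a promoter window, for the 35 members and 3 sets of genes. The bars for members are the highest of the 4 sets shown for the half-site (34.3%), the repeated half-sites (5.71%) and the C/EBP core (20.0%), and lie between those of genes in use at day 0 and of genes that stayed silent for CpG (71.4%).

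By gene class, 38 members were protein-coding, 9 were long noncoding RNAs, 2 were pseudogenes and 2 (Gm45188 and Gm12347) had no match in the reference table. All day 0 libraries together gave the members 156 footprints, 44, 65 and 47 per library, which is 1.42, 2.11 and 1.31 CPM for all 51 genes. At day 4 the sums were 206, 136 and 212 CPM, and at day 8 they were 220, 204 and 199.6 CPM. Over the 3 day 0 libraries 10 members had 0 counts, 6 had 1, 4 had 2, 7 had 3, 8 had 4, 7 had 5 and 9 had 6. Those at 0 were Trim67, Krt79, Gm26684, Adamts19, Popdc3, Gm45188, Ctcflos, Vnn3, Ppp1r9a and Apoc4. Their folds are lower bounds, set against a floor of 3 counts in each day 0 library, 0.0926 CPM on average. For the others a ratio is given with its 95% exact interval, which covers counting error only. In bulk cultures, more cells of a type and more RNA per cell cannot be told apart.

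**Figure D2:**
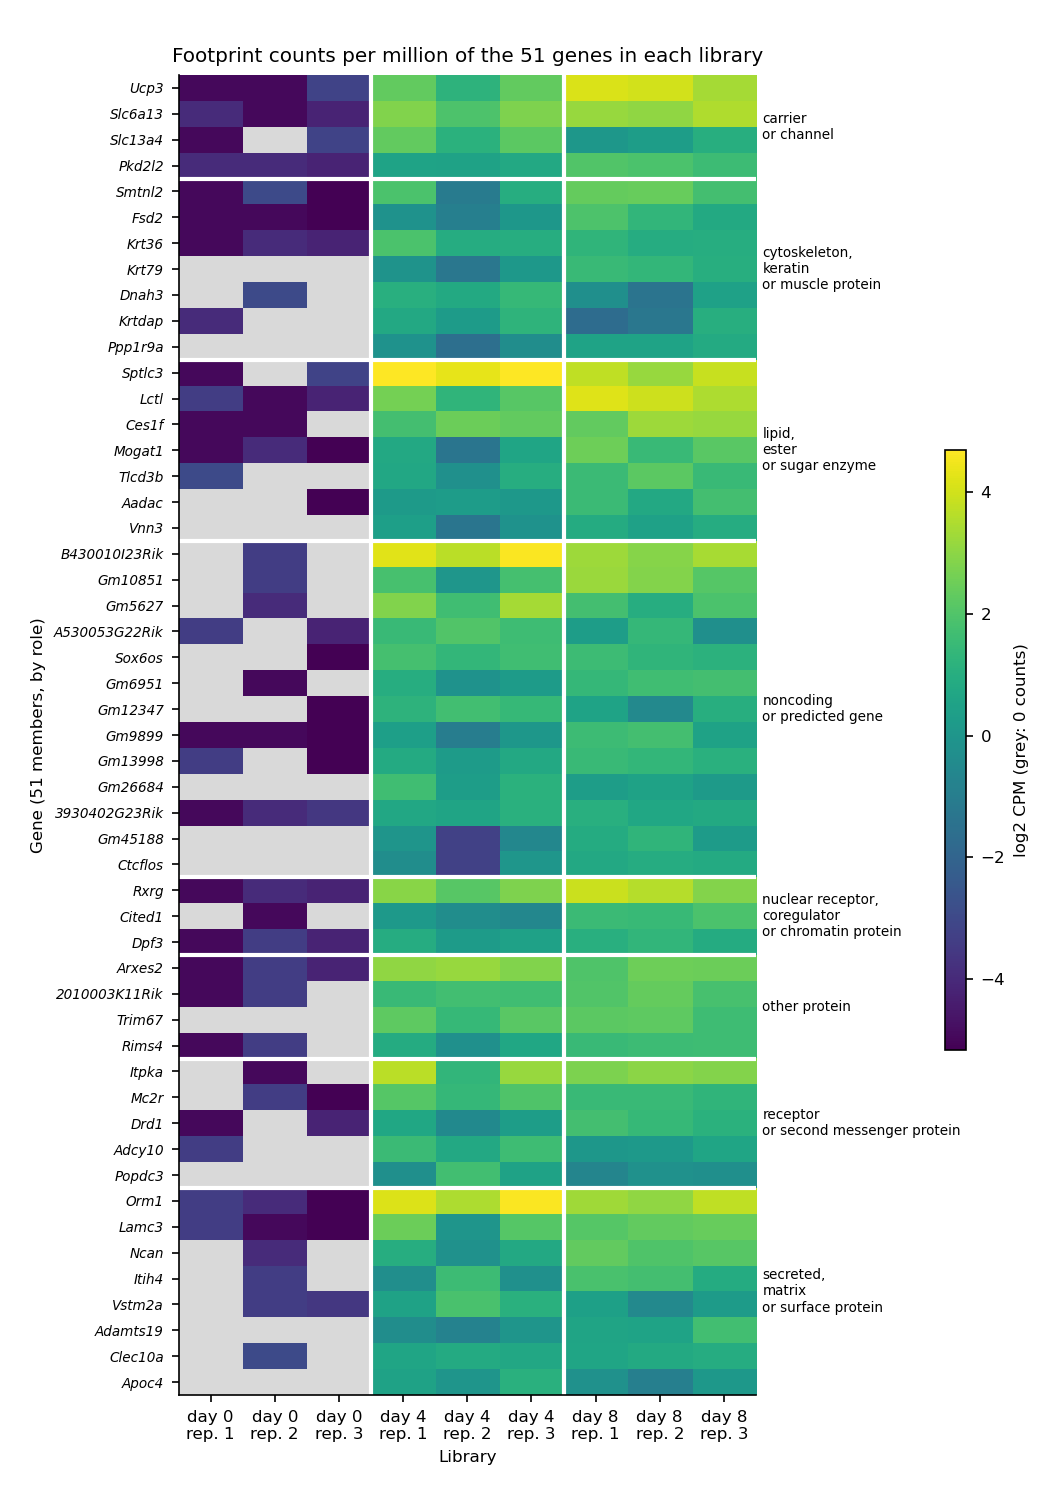
Footprint level (log2 CPM, colour; grey for 0 counts) of the 51 members in each of the 9 libraries, with genes grouped by role and ordered within a role by their higher mean. Day 0 libraries are grey or dark throughout, and day 4 replicate 2 is darker than its neighbours for most genes, with Popdc3, Itih4 and Vstm2a as exceptions.

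Of the 51 members, 28 had a mean of at least 1.5 CPM on both later days, 14 at day 8 only and 9 at day 4 only. The day 8 mean was the higher in 32 and the day 4 mean in 19, and the median ratio of day 8 to day 4 was 1.60. Of the 14714 tested genes, 8747 had the higher mean at day 8. The rule also left a wider range on the day 8 side, with limits of 4 and 3. Counts by role below stand beside these numbers, and nothing is read from them. All day 8 libraries lay above all day 4 libraries for 23 members, where 31.0% of the 14714 tested genes did so. For 9 members they lay below, where 15.6% of tested genes did so. On TMM-scaled library sizes, which correct for the makeup of a library, the counts were 21 and 10, beside 22.2% and 23.0% of tested genes. In edgeR's quasi-likelihood test with Benjamini-Hochberg adjustment, 11 members were called higher at day 8 than at day 4 and 6 lower, beside 14.7% and 17.1% of tested genes. The same test against day 0, which the rule fixed, called 51 members higher at day 4 and 51 at day 8, beside 29.8% and 34.2% of tested genes. It called 0 lower, beside 28.4% and 33.5%. Without day 4 replicate 2 and day 8 replicate 3, a choice made after seeing the data, all day 8 libraries lay above for 28 members and below for 17, beside 45.7% and 26.5% of tested genes, and edgeR called 13 higher and 13 lower, beside 16.6% and 19.9% of the genes tested in that fit. The rule bounds these contrasts, and nothing is read from the members' counts.

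**Figure D3:**
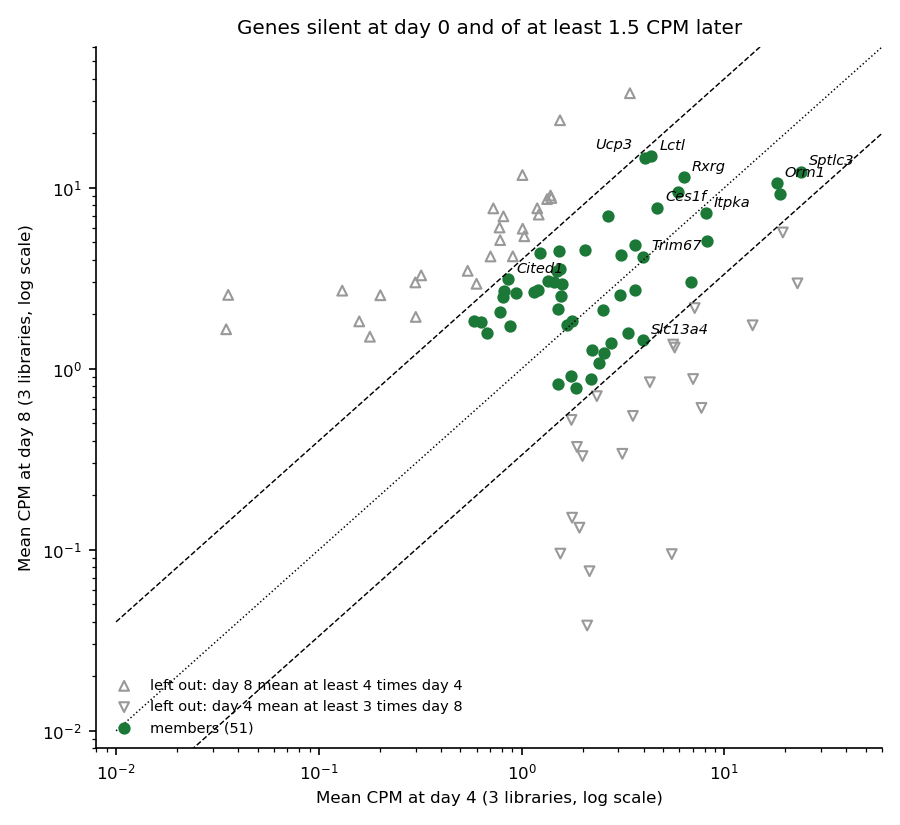
Mean CPM at day 8 (vertical, log scale) against mean CPM at day 4 (horizontal, log scale) for the genes with at most 6 counts at day 0 and at least 1.5 CPM later, Gys2 not shown. Filled points are the 51 members, between the dashed lines of the rule (4 times higher at day 8, 3 times higher at day 4); open triangles are the 27 and 21 genes left out; the dotted line marks equal means.

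Nuclear receptors, coregulators and chromatin proteins gave 3 members, all with a higher mean at day 8. Rxrg encodes retinoid X receptor gamma, 1 of the possible partners of PPARγ. Rxrg had 1, 2 and 2 counts in the day 0 libraries, 7.64, 4.42 and 6.87 CPM at day 4, and 15.0, 12.1 and 7.28 CPM at day 8. Its day 4 and day 8 libraries overlapped, since day 8 replicate 3 lay below day 4 replicate 1, and the day 8 mean was 1.81 times the day 4 mean. Its level was 124 times the day 0 mean at day 4 (95% exact interval 52.5 to 380.4) and 224 times the day 0 mean at day 8 (95% exact interval 95.6 to 690.0). Cited1 encodes a coregulator that is used as a marker of beige fat cells. Cited1 had 0, 1 and 0 counts in the day 0 libraries, 1.12, 0.789 and 0.667 CPM at day 4, and 2.97, 2.76 and 3.70 CPM at day 8. Every day 8 library lay above every day 4 library, and its ratio of day 8 to day 4, 3.67, was the highest among the members and the nearest to the limit of 4. Dpf3 is a subunit of BAF chromatin remodelling complexes. Dpf3 had 1, 3 and 2 counts in the day 0 libraries, 1.93, 1.18 and 1.41 CPM at day 4, and 2.06, 2.48 and 1.86 CPM at day 8. Its days overlapped. Relatives of these 3 were in use before induction. Rxra and Rxrb averaged 24.2 ± 4.46 and 21.4 ± 2.07 CPM at day 0 (SD, n = 3 each), where Rxrg had 5 counts in all. Cited1 is the only member among 30 genes of brown and beige fat taken up for comparison. Of the 26 tested, edgeR called 20 higher and 2 lower at day 4, and 22 higher and 1 lower at day 8. These counts include Cited1 and Otop1, whose contrasts with day 0 the selection fixed.

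Carriers and channels make up 4 members. Ucp3 is a mitochondrial carrier related to UCP1 that is best known from muscle and brown fat. Ucp3 was counted 1, 1 and 4 times at day 0 and had 4.98, 2.31 and 4.98 CPM at day 4 and 17.6, 16.3 and 10.2 CPM at day 8. The day 8 libraries lay clear of the day 4 libraries, with a ratio of 3.60. Its level was 69.6 times the day 0 mean at day 4 (95% exact interval 30.3 to 182) and 250.2 times the day 0 mean at day 8 (95% exact interval 109.9 to 654). Slc6a13 takes up GABA and taurine across the cell membrane. Slc6a13 had 2, 1 and 2 counts in the day 0 libraries, 7.02, 3.81 and 6.98 CPM at day 4, and 8.92, 8.31 and 11.4 CPM at day 8. All day 8 libraries were above all day 4 libraries, although the means differed by only 1.61 times. Slc13a4, a carrier of sulfate with sodium, was the opposite. Slc13a4 had 1, 0 and 4 counts in the day 0 libraries, 5.06, 2.21 and 4.64 CPM at day 4, and 1.03, 1.25 and 2.04 CPM at day 8. It was lower in every day 8 library than in every day 4 library, with a day 4 to day 8 ratio of 2.76, the nearest to the limit of 3. Pkd2l2 belongs to the polycystin channel family. Pkd2l2 had 2, 2 and 2 counts in the day 0 libraries, 1.47, 1.45 and 1.74 CPM at day 4, and 4.00, 3.76 and 2.98 CPM at day 8. The gene overlaps Fam13b, which averaged 44.9 CPM at day 0, 16.7 CPM at day 4 and 8.32 CPM at day 8, the opposite order to Pkd2l2. None of 20 potassium, calcium and chloride channels taken up for comparison is a member, and of the 11 tested, edgeR called 3 higher and 5 lower at day 4 and 3 higher and 6 lower at day 8 than at day 0. Among all tested genes 29.8% were higher and 28.4% lower at day 4, and 34.2% higher and 33.5% lower at day 8, and these shares also stand beside the counts of the other lists. Each list was counted with its members and its other genes that were silent at day 0 and came on later, such as Otop1 here. For those genes the selection fixed the contrast with day 0, and nothing is read from their calls.

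Among receptors and second messenger proteins, 4 of 5 members had the higher mean at day 4. Mc2r is the receptor for the pituitary hormone ACTH, which acts through cyclic AMP. Mc2r was counted 0, 3 and 1 times at day 0 and had 4.24, 2.66 and 3.97 CPM at day 4 and 2.89, 2.87 and 2.44 CPM at day 8. The days overlapped by 1 library, since day 4 replicate 2 was below the 2 highest day 8 libraries. Drd1, a dopamine receptor that raises cyclic AMP, was the member with the higher mean at day 8. Drd1 had 1, 0 and 2 counts in the day 0 libraries, 1.63, 0.710 and 1.26 CPM at day 4, and 3.32, 2.73 and 2.18 CPM at day 8. Adcy10 is the soluble adenylyl cyclase that makes cyclic AMP inside the cell. Adcy10 had 3, 0 and 0 counts in the day 0 libraries, 2.91, 1.71 and 3.08 CPM at day 4, and 1.03, 1.09 and 1.55 CPM at day 8. The lowest day 4 library was above the highest day 8 library. Popdc3 is a membrane protein of the Popeye family, which binds cyclic AMP. Popdc3 had 0 counts in each day 0 library, 0.843, 3.26 and 1.44 CPM at day 4, and 0.629, 0.892 and 0.832 CPM at day 8. Its day 4 values ranged 3.87-fold, with replicate 2 the highest, and 1.44 CPM in replicate 3 was above all day 8 libraries. Itpka phosphorylates inositol trisphosphate, the messenger that releases stored calcium. Itpka was counted 0, 1 and 0 times at day 0 and had 12.8, 2.498 and 8.95 CPM at day 4 and 6.69, 7.86 and 7.20 CPM at day 8. It was spread 5.13-fold within day 4, with replicate 2 below all day 8 libraries and replicates 1 and 3 above all of them. A rule of level, ratio, list membership and nearness to a limit named 31 members, and the other 20, Drd1 and Adcy10 among them, are described by choice after their values were seen.

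Of 20 G protein-coupled receptors of fat cells on a list taken up for comparison, 18 were tested against day 0. At day 4, 14 were called higher and 2 lower, and at day 8, 15 higher and 3 lower (edgeR, Benjamini-Hochberg). Of the 20, only Mc2r is a member. Sucnr1 and Gipr were also silent at day 0, with 6 and 3 counts, and belong to the genes far higher at day 8. The calls above include Mc2r, Sucnr1 and Gipr, whose contrasts with day 0 the selection fixed. The others were already counted at day 0 or stayed low, for example Adrb3 at 1.66 CPM on day 0, 70.6 CPM at day 4 and 128 CPM at day 8. The melanocortin receptor Mc5r, a relative of Mc2r, lay outside 2 limits of the rule. It had 14 counts at day 0, above the limit of 6, and its day 4 mean was more than 3 times its day 8 mean. Mc5r averaged 0.142 ± 0.0679 CPM at day 0, 29.3 ± 12.9 CPM at day 4 and 8.00 ± 2.83 CPM at day 8 (SD, n = 3 each). Mc1r, Mc3r and Mc4r had 0 or 1 counts at day 0 and at most 2 counts in any library.

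A total of 7 members are enzymes of lipids, esters or sugars, and 6 of them had the higher mean at day 8. Sptlc3 encodes a subunit of serine palmitoyltransferase, which opens sphingolipid synthesis, and had the highest count of all members. Sptlc3 had 1, 0 and 4 counts in the day 0 libraries, 25.5, 20.2 and 25.9 CPM at day 4, and 13.5, 8.92 and 14.4 CPM at day 8. All day 8 libraries were below all day 4 libraries, at 0.515 times the day 4 mean. Its level was 498 times the day 0 mean at day 4 (95% exact interval 199.6 to 1438) and 256 times the day 0 mean at day 8 (95% exact interval 102 to 739). Tlcd3b, a protein of the ceramide synthase-like TLC family, averaged 3.46 ± 0.963 CPM at day 8 and 1.501 ± 0.564 CPM at day 4. Mogat1 joins fatty acids to monoacylglycerol. Mogat1 had 1, 2 and 1 counts in the day 0 libraries, 1.74, 0.394 and 1.56 CPM at day 4, and 5.77, 2.84 and 4.47 CPM at day 8. Day 4 replicate 2 was the lowest library, but all day 8 libraries lay above all day 4 libraries. Lctl is a protein of the family 1 glycosidases, to which the klothos belong. Lctl had 3, 1 and 2 counts in the day 0 libraries, 6.26, 2.42 and 4.41 CPM at day 4, and 18.4, 15.4 and 11.3 CPM at day 8. Its day 8 libraries were all higher than its day 4 libraries, with a ratio of 3.45. The gene overlaps Zwilch, which averaged 10.8 CPM at day 0, 5.20 CPM at day 4 and 3.19 CPM at day 8.

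Ces1f is a carboxylesterase, 1 of a cluster of close copies whose reads may be split or shared. Ces1f was counted 1, 1 and 0 times at day 0 and had 3.40, 5.63 and 5.00 CPM at day 4 and 5.00, 9.39 and 8.95 CPM at day 8. Day 4 replicate 2 was the highest of its day. Aadac, an esterase best known from liver, averaged 2.66 ± 0.830 CPM at day 8 and 1.15 ± 0.0679 CPM at day 4, and Vnn3, a vanin, 1.72 ± 0.287 and 0.875 ± 0.470 CPM. Of 38 targets of PPAR in fat and liver taken up for comparison, Mogat1 and Ucp3 are the 2 members. Of the 34 tested, 31 were called higher and 3 lower at day 4, and 31 higher and 2 lower at day 8. These counts include the 2 members, whose contrasts with day 0 the rule fixed. Vnn1, another vanin on that list, was among those lower on both days, at 4.59 ± 0.340 CPM at day 0, 1.09 ± 0.592 CPM at day 4 and 0.514 ± 0.341 CPM at day 8.

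Secreted, matrix and surface proteins gave 8 members. Orm1, an acute phase protein of plasma also called orosomucoid, had the highest counts of them. Orm1 had 3, 2 and 1 counts in the day 0 libraries, 18.3, 11.2 and 24.8 CPM at day 4, and 9.89, 8.31 and 13.6 CPM at day 8. All day 8 libraries but replicate 3 lay below all day 4 libraries, and replicate 3 lay between day 4 replicates 2 and 1. Its copies Orm2 and Orm3 had 0 counts at day 0 and averaged 1.41 and 0.337 CPM at day 4 and 0.228 and 0.104 CPM at day 8. The 3 are close copies, and no source used here states how reads with several matches were counted, so the split between them is uncertain. Itih4 is a plasma protein of the inter-alpha-trypsin inhibitor heavy chains. Itih4 had 0, 3 and 0 counts in the day 0 libraries, 0.816, 3.05 and 0.872 CPM at day 4, and 3.60, 3.40 and 1.86 CPM at day 8. At day 4, replicate 2 was more than 3 times the others. Apoc4, an apolipoprotein, averaged 0.826 ± 0.271 CPM at day 8 and 1.51 ± 0.597 CPM at day 4. Summed over 5 liver markers, levels were 0.0322 to 1.88 CPM at day 0, 6.86 to 27.0 CPM at day 4 and 3.75 to 8.70 CPM at day 8. Most of the day 4 sum was Apoc3, with a mean of 17.3 CPM, and Apoa1 averaged 0.117, 0.789 and 0.468 CPM at days 0, 4 and 8. Alb averaged 0.465, 0.385 and 1.59 CPM at those days, with 4.68 CPM in day 8 replicate 2, and Tat and Ttr averaged at most 0.102 CPM on any day. Of the 3 liver markers tested, edgeR called 2 higher at day 4 and 1 at day 8. The part of liver-type cells in these levels was not tested. Orm1 and Itih4 are on a list of 22 secreted products of fat cells, of which 20 were tested, with 16 called higher and 2 lower at day 4 and 17 higher and 2 lower at day 8. These counts include Orm1 and Itih4, whose contrasts with day 0 the rule fixed, and Orm2, with 0 counts at day 0.

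Lamc3, a laminin chain, had 4.29 to 5.22 CPM at day 8, against 5.63 and 4.31 CPM in day 4 replicates 1 and 3 and 0.973 CPM in day 4 replicate 2. Ncan, a proteoglycan best known from brain, averaged 4.49 ± 0.524 CPM at day 8 and 1.53 ± 0.569 CPM at day 4, with no overlap. Summed over 6 nerve and Schwann cell markers, levels were 0.547 to 1.14 CPM at day 0. They were 0.394 to 0.795 CPM at day 4 and 0.943 to 2.12 CPM at day 8. Of these markers Rbfox3, a marker of neurons, had 0 counts in every library. The part of nerve cells was not tested. Adamts19, a secreted protease, had 3.24 CPM in day 8 replicate 3 against 1.52 and 1.45 CPM in the other 2. Vstm2a is a secreted protein with an immunoglobulin domain that has been studied in preadipocytes. Vstm2a had 0, 3 and 3 counts in the day 0 libraries, 1.41, 3.65 and 2.15 CPM at day 4, and 1.34, 0.697 and 1.18 CPM at day 8. Day 4 replicate 2 was again the highest, and all day 8 libraries were below all day 4 libraries. Clec10a is a lectin of macrophages and dendritic cells. Clec10a was counted 0, 4 and 0 times at day 0 and had 1.55, 1.84 and 1.67 CPM at day 4 and 1.54, 1.78 and 1.89 CPM at day 8. It was the most even member across the 6 later libraries, while the summed level of 7 macrophage markers was 61.9 to 110 CPM at day 0, 47.5 to 63.7 CPM at day 4 and 19.6 to 47.8 CPM at day 8. Of these 7 genes, Lyz2 averaged 42.8, 25.6 and 9.14 CPM at days 0, 4 and 8. Ptprc averaged 17.6, 14.7 and 14.2 CPM, and Cd68 5.07, 2.83 and 5.30 CPM. The edgeR calls for the 7 were 0 higher and 1 lower at day 4, and 0 higher and 4 lower at day 8. None of the 7 had 0 counts throughout, and the part of macrophages was not tested.

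A total of 7 members are keratins, muscle proteins or parts of the cytoskeleton. Krt36 and Krt79 are keratins and Krtdap is a protein of keratinocytes. Krt79 had 0 counts in each day 0 library, 0.925, 0.421 and 1.08 CPM at day 4, and 2.86, 2.59 and 2.04 CPM at day 8. It was higher in every day 8 library than in every day 4 library. Krt36 averaged 2.12 ± 0.294 CPM at day 8 and 2.52 ± 1.02 CPM at day 4. Krtdap had 2, 0 and 0 counts in the day 0 libraries, 1.74, 1.18 and 2.36 CPM at day 4, and 0.314, 0.418 and 2.01 CPM at day 8. Its day 8 mean rests on replicate 3. Over 6 epithelial markers (Epcam, Cdh1, Krt5, Krt14, Krt8, Krt18) the summed level was 0.844 to 1.23 CPM at day 0, 0.180 to 0.447 CPM at day 4 and 0.200 to 0.362 CPM at day 8. At day 8, Krt5 and Krt14 had 0 counts, and Epcam, Cdh1, Krt18 and Krt8 averaged 0.123, 0.0939, 0.0191 and 0.0188 CPM. Both keratin members had at least 1.92 CPM in every library of that day. The part of epithelial cells was not tested.

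Smtnl2 is a protein of smooth and striated muscle related to smoothelin. Smtnl2 had 1, 4 and 1 counts in the day 0 libraries, 3.73, 0.473 and 1.97 CPM at day 4, and 5.09, 5.24 and 3.33 CPM at day 8. Day 4 replicate 2 had 18 counts, where replicates 1 and 3 had 137 and 77. Fsd2 is a muscle protein. Fsd2 was counted 1, 1 and 1 times at day 0 and had 0.898, 0.526 and 1.03 CPM at day 4 and 3.83, 2.48 and 1.78 CPM at day 8. The lowest day 8 library was above the highest day 4 library. Over 7 skeletal muscle markers the summed level was 45.2 to 59.2 CPM at day 0, 1.69 to 5.49 CPM at day 4 and 5.89 to 8.32 CPM at day 8. Nearly all of it was Acta1, the 1 marker tested, which edgeR called lower on both later days, while Myod1 and Myf5 had 0 counts in all 9 libraries. The part of muscle cells was not tested. Ppp1r9a, or neurabin, an actin-binding protein of synapses, averaged 1.58 ± 0.220 CPM at day 8 and 0.678 ± 0.296 CPM at day 4, and Dnah3, a dynein of cilia, 0.875 ± 0.509 and 2.19 ± 0.503 CPM.

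The other 4 protein-coding members have other roles. Trim67 is a ubiquitin ligase best known from neurons. Trim67 had 0 counts in each day 0 library, 4.71, 2.73 and 4.51 CPM at day 4, and 4.66, 4.79 and 3.07 CPM at day 8. It was at least 43.0-fold higher at day 4 and at least 45.1-fold higher at day 8 than at day 0, and the later days overlapped. Arxes2, a gene of the X chromosome known to increase with fat cell formation, has a near-identical copy, Arxes1, with 7 counts at day 0. Arxes2 had 1, 3 and 2 counts in the day 0 libraries, 8.38, 9.12 and 7.15 CPM at day 4, and 3.92, 5.80 and 5.56 CPM at day 8. All its day 8 libraries were below all its day 4 libraries. Arxes1 averaged 3.34 ± 0.214 CPM at day 8 and 5.27 ± 1.00 CPM at day 4. Rims4, of the RIM proteins of nerve endings, averaged 3.01 ± 0.108 CPM at day 8 and 1.45 ± 0.517 CPM at day 4, and 2010003K11Rik 4.27 ± 0.842 and 3.11 ± 0.195 CPM.

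The other 13 members are noncoding, predicted or unmatched genes, 7 with the higher mean at day 8 and 6 at day 4. B430010I23Rik had the highest counts among them. B430010I23Rik had 0, 3 and 0 counts in the day 0 libraries, 19.0, 12.9 and 24.8 CPM at day 4, and 9.52, 7.47 and 10.7 CPM at day 8. It overlaps Mtus1, which averaged 19.2 CPM at day 0, 125 CPM at day 4 and 111 CPM at day 8. Gm10851 was counted 0, 3 and 0 times at day 0 and had 3.56, 0.999 and 3.49 CPM at day 4 and 9.26, 7.36 and 4.30 CPM at day 8. That gene overlaps Pfkfb3, an enzyme that sets the pace of glycolysis, which averaged 43.5 CPM at day 0, 698 CPM at day 4 and 1087 CPM at day 8. Gm9899 overlaps the potassium channel gene Kcnk3 (0.296, 49.3 and 71.4 CPM at days 0, 4 and 8), Sox6os overlaps Sox6 (0.147, 1.23 and 1.65 CPM), and Gm13998 overlaps Mga (65.3, 67.0 and 65.4 CPM). In all, 7 members overlapped a gene with at least 1.5 CPM at day 4 or day 8. Overlap was taken over whole gene spans and not over exons, and no source used here states the strand setting of the counting. How far footprints of 1 gene of such a pair were counted for the other was not tested. Gm5627 had 0, 2 and 0 counts in the day 0 libraries, 7.02, 3.18 and 10.4 CPM at day 4, and 3.40, 1.98 and 3.70 CPM at day 8. Gm5627, a long noncoding RNA, overlapped between the days only through day 4 replicate 2. The other 10 (3930402G23Rik, A530053G22Rik, Ctcflos, Gm12347, Gm26684, Gm45188, Gm6951, Gm9899, Gm13998, Sox6os) had day 8 means of 1.28 to 3.04 CPM and day 4 means of 0.584 to 3.34 CPM.

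Between the libraries of a day, members did not scatter evenly. Day 4 replicate 2 was the lowest of its day for 40 of the 51 members (78.4%), against 39.2% of tested genes. It was the highest for 10, among them Popdc3, Itih4, Vstm2a, Ces1f, Arxes2, Clec10a and Aadac, where 43.8% of tested genes were highest there. The pattern of lowest values was there on both sides of the day 8 to day 4 ratio. It held for 26 of 32 members with the higher mean at day 8 (81.2%, against 50.1% of tested genes with a higher day 8 mean), and for 14 of 19 with the higher mean at day 4 (73.7%, against 23.3%). The median deviation from a gene's day 4 mean was −0.52 on the log2 scale in replicate 2, 0.26 in replicate 1 and 0.23 in replicate 3. In the same library the fat cell markers summed to 30900 CPM, against 45497 and 45908 CPM in replicates 1 and 3. The precursor markers summed to 1742 CPM, against 752 and 835 CPM. Their part in the members' lower level there was not tested. At day 8, replicate 3 was the lowest for 21 members (41.2%, against 37.7% of tested genes) and the highest for 20. The median ratio of the highest to the lowest library was 1.52 at day 8 and 2.13 at day 4, with the largest in Krtdap at day 8 (6.38) and Ctcflos at day 4 (9.51).

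**Figure D4:**
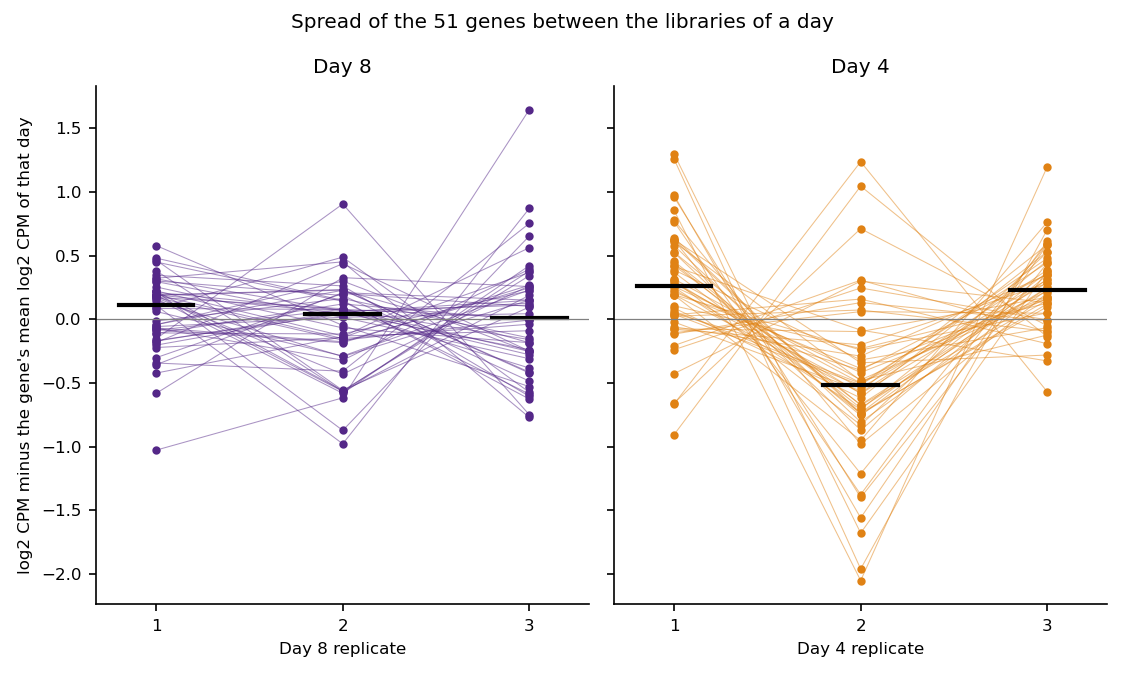
Deviation of each member's log2 CPM from its mean over the 3 libraries of day 8 (left) or day 4 (right), with 1 thin line per gene and a bar at the median of each library. At day 8 the 3 medians lie between 0.01 and 0.11, and at day 4 the median of replicate 2 is −0.52 and those of replicates 1 and 3 are 0.26 and 0.23.

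Many members have a relative, a gene of the same small family, that was in use before induction. These relatives were not part of the rule, although the families were listed after the members' values were known. In 29 families there were 64 relatives in the table, of which 29 were themselves silent at day 0. The 35 tested with edgeR include Orm2, with 0 counts at day 0, and leave out Rims1, with 7. Some tested relatives were barely counted at day 0, among them Arxes1 and Apoc3 with 7 counts, Cited4 with 12, Mc5r with 14 and Bves with 18. Like Orm2, these passed the low-count filter only through the later days. Their higher calls were thus fixed by entry into the test, and nothing is read from them. At day 4, 16 of the 35 tested were called higher than at day 0, 12 lower and 7 neither, beside 29.8% and 28.4% of all tested genes. At day 8, 15 were higher, 17 lower and 3 neither, beside 34.2% and 33.5%. Relatives lower on both days belonged to 12 families and relatives higher on both days also to 12, the CITED, DPF and Popeye families among both. Of those lower on both days, Cited2, Itpkb, Dpf2 and Vstm2b each lost a call under some other fits. None of those higher on both days did, but these include the relatives that entered the test only through the later days. With 1 library left out, 16 to 17 were higher and 9 to 14 lower at day 4. The shares of tested genes were 25.7% to 32.1% and 22.6% to 31.7%. At day 8, 15 to 16 were higher and 13 to 17 lower, beside 31.4% to 35.6% and 29.2% to 35.3%. Without day 4 replicate 2 and day 8 replicate 3 18 relatives were higher and 14 lower at day 4, beside 33.3% and 33.3% of genes tested in that fit, and 16 higher and 17 lower at day 8, beside 35.6% and 35.2%.

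The first kind is a family in which another member was lower where the silent one was counted. Sptlc2 is a catalytic subunit of serine palmitoyltransferase, as Sptlc3 is, and each pairs with Sptlc1. Sptlc2 averaged 147 ± 9.29 CPM at day 0, 75.8 ± 20.9 CPM at day 4 and 70.8 ± 9.32 CPM at day 8 (SD, n = 3 each). Its log2 change was −0.80 ± 0.17 (SE, adjusted p = 0.0029) at day 4 and −1.04 (adjusted p = 0.00048) at day 8 in edgeR. The common subunit Sptlc1 averaged 55.5 ± 5.71, 58.8 ± 11.8 and 41.6 ± 3.23 CPM at days 0, 4 and 8, with a log2 change of 0.24 at day 4 (edgeR adjusted p = 0.16) and −0.40 at day 8 (adjusted p = 0.026). The day 8 call was lost without day 0 replicate 1 or 2 or day 8 replicate 1 or 2 (edgeR adjusted p of 0.101 at the highest), and the day 4 change was called without day 4 replicate 1 (edgeR adjusted p = 0.0363). Mogat2 fell to 0.0708 ± 0.0408 CPM at day 4 and 0.0661 ± 0.0593 CPM at day 8, against 1.24 ± 0.587 CPM at day 0 (edgeR adjusted p = 0.00069 and 0.00041). Mogat1 took the reverse course, as its values above show. Popdc2 had 0.612 to 0.809 CPM in the day 0 libraries, at most 0.184 CPM at day 4 and 0 counts at day 8 (edgeR adjusted p = 0.0095 and 0.0011), where Popdc3 had 0, 31 to 124 and 22 to 32 counts per library. Itpkb had 21.9 to 25.0 CPM at day 0, 13.3 to 15.7 CPM at day 4 and 5.75 to 9.43 CPM at day 8. Its log2 change was −1.68 at day 8 (edgeR adjusted p = 2.9e-05). At day 4 it was −0.55 (edgeR adjusted p = 0.022), a call that was lost without day 0 replicate 3, without day 4 replicate 1 or without day 4 replicate 3 (edgeR adjusted p of 0.0799 at the highest). Cited2 was lower at day 8 by a log2 change of −0.73 (edgeR adjusted p = 0.0030).

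In the second kind a relative that was already counted became more so, and a family can be of both kinds. Ucp1 averaged 0.656 ± 0.280 CPM at day 0, 8.56 ± 6.36 CPM at day 4 and 258 ± 111 CPM at day 8, and Ucp2 9.28 ± 0.533, 43.9 ± 18.2 and 152 ± 32.2 CPM (SD, n = 3 each). All 4 contrasts with day 0 were called in edgeR, with adjusted p of 0.00070 at the highest. Klb, the klotho that shares a family with Lctl, averaged 0.602 ± 0.0460, 128 ± 32.9 and 195 ± 2.64 CPM at days 0, 4 and 8. Cited4 averaged 0.122 ± 0.0219, 7.45 ± 1.195 and 2.84 ± 0.868 CPM, higher at day 4 than at day 8, where Cited1 had its higher mean at day 8. Bves, another Popeye protein, averaged 0.178 ± 0.138, 3.32 ± 2.30 and 2.505 ± 1.10 CPM, and like Popdc3 had its highest library in day 4 replicate 2 (5.97 CPM). Dpf1 rose by log2 2.16 at day 4 and 1.39 at day 8 (edgeR adjusted p = 3.8e-05 and 0.00045), and Rxrb by 0.73 and 0.86 (adjusted p = 0.0022 and 0.00059). Dpf2 went the other way, with log2 changes of −0.53 and −0.31 (edgeR adjusted p = 0.0029 and 0.035).

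**Figure D5:**
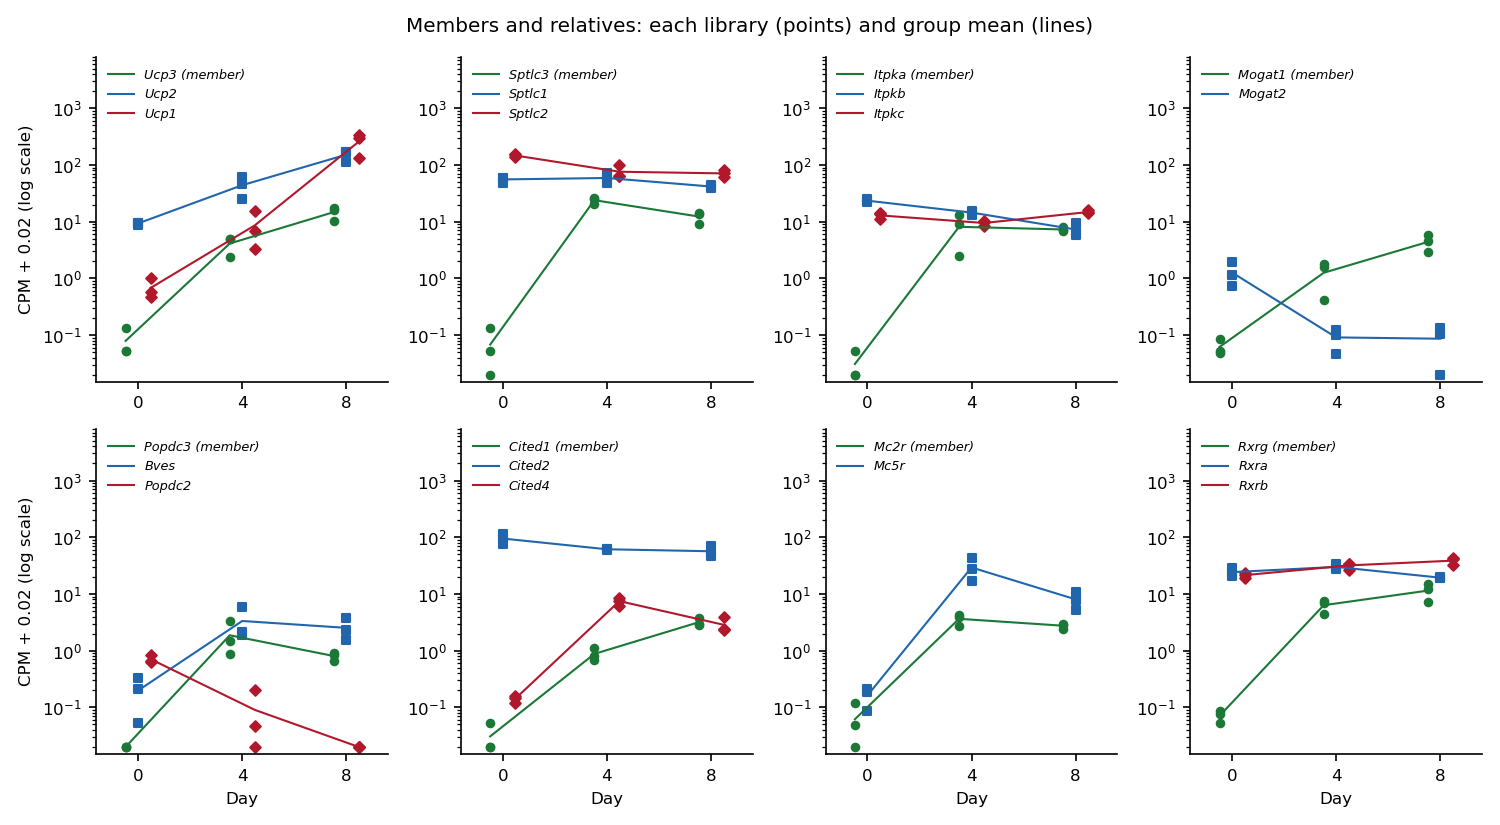
CPM + 0.02 (vertical, log scale) at days 0, 4 and 8 for 8 members (green circles) and tested relatives (blue squares, red diamonds), with 1 point per library and lines through the group means. Members start near the bottom at day 0, Mogat2 and Popdc2 run the other way, and Sptlc1, Sptlc2, Rxra and Rxrb stay above 10 CPM throughout.

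The limits of the rule lie in a dense range. At the limit of 6 counts were 9 members, among them Orm1, Ucp3 and Lctl, and 9 further genes with 7 counts lay just outside, among them Nrg4 (13.5 CPM at day 8 and 4.41 CPM at day 4) and Arxes1. Just above 1.5 CPM lay Apoc4 at 1.51, Ppp1r9a at 1.58 and Vnn3 at 1.72 CPM, and just below it Frmd8os at 1.496 and Nupr1l at 1.43 CPM. At the ratio of 4, Cited1 (3.67), Ucp3 and Mogat1 were inside and Flacc1 (4.62), Got1l1 and Gm47593 outside. At the day 4 to day 8 ratio of 3, Slc13a4 (2.76) and Dnah3 (2.504) were inside and Wfdc21 (3.30) and Ppil6 (3.33) outside. With a limit of 0 counts 10 members were left, all of them among the 51.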

How the data were processed

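Ribosome footprints of 9 libraries were measured, 3 at each of days 0, 4 and 8. The deposited table holds raw counts per gene and library, per the file headers and the labels. Per the submitters' processing notes, cutadapt, HISAT2 and featureCounts were used with GRCm39. No source used here gives the tool versions, the strandedness or the handling of reads with several matches.

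From these counts, CPM were computed on library totals of 30823028 to 38994892. Contrasts between days were fitted over all 9 libraries with edgeR 4.0.16 (R 4.3.3; quasi-likelihood test, TMM sizes, filterByExpr with a minimum count of 10, 14714 genes tested, adjusted p limit 0.05 after Benjamini-Hochberg), and the fit was tested on simulated counts. DESeq2 1.42.0 and limma 3.58.1 (voom) served as alternatives, besides other sizes, filters, limits, the replicate number as a block and leaving out libraries. Promoter windows came from RefSeq (GRCm38.p6), matched by gene. Tables and exact intervals used Python 3.11.15 and scipy 1.17.1. Intervals and floors cover counting error only, since footprints amplified by PCR are not independent molecules.

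The naming rule took the 12 members of highest CPM, the 5 with the highest and the 5 with the lowest ratio of day 8 to day 4, the members on the gene lists, the 5 nearest each limit with the 5 just outside it (9 and 9 at the day 0 limit, where counts tie), a few genes known from earlier results, and further members that share a role with these. The members, the gene lists and the families were chosen with earlier results of these data known.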

Additional observations from a re-analysis of the deposited data

How the results depend on the processing

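The rule gave 51 members, and it gave 10 with a day 0 limit of 0 counts, 27 with 3, 80 with 10, and 27 with a later mean of at least 3 CPM; leaving out 1 library gave 46 to 62. Of the members, edgeR called 17 between day 8 and day 4 (11 higher, 6 lower), beside 31.8% of all tested genes. It called 26 (12 lower) with no low-count filter, beside 16.7%, and 26 (13 lower) without day 4 replicate 2 and day 8 replicate 3, beside 36.5%. DESeq2's test called 27 (12 lower), beside 37.1%, and limma-voom 29 (19 higher, 10 lower), beside 32.8%. Leaving out 1 library gave 7 to 21 calls, 5 to 12 higher and 2 to 11 lower, beside 18.0% to 32.5% of tested genes. The lowest total came without day 8 replicate 1 (5 higher, 2 lower), beside 18.0%. Without day 4 replicate 3 there were 2 lower calls, without day 8 replicate 2 there were 3, and without day 4 replicate 2 there were 11. The shares of tested genes called lower were 13.4%, 9.58% and 16.2%. With column totals as sizes the median of all tested genes was 0.12 on the log2 scale, against −0.02. In that fit 15 members were called higher and 4 lower, beside 22.2% and 11.5% of tested genes. All day 8 libraries lay below all day 4 libraries for 9 members, and for 17 without those 2 libraries. The low CpG share of members was 14.0 percentage points above that of all genes and 45.9 above that of genes in use at day 0. The causes of these shifts were not tested. With the replicate block edgeR called 16 members (9 higher, 7 lower), beside 13.1% and 14.6% of tested genes. Same-numbered libraries correlated at −0.20 to 0.19 in their deviations from group means. With 3 libraries a day, of which 2 stand apart, these values cannot decide whether the numbers pair the libraries. Of the named relatives, Cited2 at day 4 lost its call under 5 alternatives and Itpkb under 3, and Sptlc1 at day 8 under 4. Dpf2 at day 8 and Vstm2b at day 4 also lost theirs under some alternatives. No called change of a relative against day 0 changed sign under the alternatives run, and neither did the members' median change between day 4 and day 8. There were 3 libraries a day, and 24 members had means under 3 CPM on both later days.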

Other observations

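The reverse pattern was rare. Il1f10, Gm44275, Matn3, Mcpt8, Gm36107 and Tg had at least 1.5 CPM at day 0 and at most 6 counts over the day 8 libraries, and Alkal1, Gm44275, Mmp10 and Gm36107 had at most 6 counts over the day 4 libraries.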
